A study of Mus musculus with 12 samples.

Results

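The 9 genes described here encode proteins that carry, sense and destroy retinoic acid (RA) or handle its precursors retinol and retinal. These are the receptors Rara, Rarb and Rarg, and the RA hydroxylases Cyp26a1 and Cyp26b1. The others are the retinal reductase Dhrs3, the binding proteins Crabp1 and Crabp2, and the membrane receptor Stra6. All 9 were taken by symbol from a table of 54555 genes, each symbol matched 1 row, and all 9 passed the filter on low values. RNA was sequenced from R1 mouse embryonic stem cells (mESCs), an established line kept undifferentiated with leukemia inhibitory factor, in 12 libraries, 3 in each of 4 groups. RA_OGTi cells received 25 µM Ac45SGlcNAc for 48 h and then 1 µM RA for 48 h. RA_control cells received DMSO before the same RA step. mESC_OGTi cells received 25 µM Ac45SGlcNAc for 48 h without RA, and mESC_control cells are labelled as normal mESCs. Ac45SGlcNAc is an inhibitor of OGT, or O-GlcNAc transferase, which adds single N-acetylglucosamine sugars to proteins inside the cell. The RA step also meant replating and medium without leukemia inhibitory factor, so a change with RA below is a change with all 3, and these cannot be told apart. RA_OGTi cells also spent the 48 h of the RA step after the inhibitor. Time since the inhibitor thus differs between the states and cannot be told apart either. If mESC_control cells received no DMSO, the inhibitor's effect in mESCs includes that of DMSO. So then does the change with RA without inhibitor, and with it the difference of the inhibitor's effects. The labels do not say if the inhibitor stayed on the cells through the RA step.

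All-trans RA is a ligand of nuclear receptors that sit on DNA as pairs with a retinoid X receptor, hold corepressors when empty and recruit coactivators when RA binds. Among the best known targets are genes of the pathway itself: Rarb, and the CYP26 enzymes that oxidise RA and so limit its own signal. In mESCs, RA added in place of leukemia inhibitory factor is a classic trigger of exit from pluripotency.

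The classic RA response element is a direct repeat of a receptor half-site with a spacer of 5 bases (DR5). Promoter windows from RefSeq (GRCm38.p6, 250 bases before to 50 after an annotated start) were found for 8 of the 9 genes, all but Crabp2, in 17 windows. They were searched on both strands for 2 half-sites in tandem, each being the consensus AGGTCA or a variant spelled AGTTCA as well as GGGTCA and also GGTTCA, with spacers of 1, 2 or 5 bases (DR1, DR2 and DR5). Rarb and Cyp26a1 held a DR5 and none of the 8 held a DR1 or a DR2. A DR5 stood in a window of 31 of 27025 genes with a window (0.115%), a DR1 in 0.263% and a DR2 in 0.311%. A single half-site stood in 46.9% of genes and in 5 of the 8. These counts by gene are not like for like, as the 8 genes have 17 windows and the 27025 genes have 32851. By window, a single half-site stood in 43.7% of the 32851. The 2 windows are shown because they hold this repeat, with both half-sites in capitals. That of Rarb is chr14:16575427-16575726 on the minus strand, and its repeat covers the bases 53 to 37 before this annotated start. The start lies inside the deposited coordinates of Rarb (16430839 to 16819156, minus strand) and not at their upstream end. The level of Rarb below is per gene and not per start. The window of Cyp26a1 is chr19:37697558-37697857 on the plus strand, and its repeat, read on the opposite strand, covers the bases 32 to 16 before the start.
Rarb: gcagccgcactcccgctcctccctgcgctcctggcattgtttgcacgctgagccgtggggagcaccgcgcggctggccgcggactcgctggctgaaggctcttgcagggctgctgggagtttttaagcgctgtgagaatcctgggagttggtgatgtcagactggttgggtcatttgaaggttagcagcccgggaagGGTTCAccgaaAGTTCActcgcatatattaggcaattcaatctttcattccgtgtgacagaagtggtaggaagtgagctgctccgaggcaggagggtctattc
Cyp26a1: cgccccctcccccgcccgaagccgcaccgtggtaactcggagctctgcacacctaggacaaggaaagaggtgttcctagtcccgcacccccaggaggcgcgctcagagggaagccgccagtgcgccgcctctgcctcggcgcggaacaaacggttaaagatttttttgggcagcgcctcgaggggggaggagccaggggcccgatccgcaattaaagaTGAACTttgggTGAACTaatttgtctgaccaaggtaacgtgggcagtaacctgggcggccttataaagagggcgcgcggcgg
In the direction of the motif the repeat reads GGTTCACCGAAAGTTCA at Rarb and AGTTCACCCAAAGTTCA at Cyp26a1. Of the 31 genes with a DR5, 3 were tested in these libraries: Rarb, Cyp26a1 and Blvrb, a biliverdin reductase that did not pass with RA without inhibitor (log2 fold change 0.13, adjusted p = 0.28). Blvrb was lower with RA in inhibitor-treated cells (log2 fold change -0.40, adjusted p = 0.00403) and lower with the inhibitor in RA-treated cells (log2 fold change -0.76, adjusted p = 0.000276), and its difference of inhibitor effects was -0.52 (adjusted p = 0.0471). A match is a stretch of letters and not a measured binding site, and no match in a window of 300 bases says nothing of sites elsewhere.

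Libraries held 15553627 to 17833464 fragments assigned to genes. As a check of the labels, the summed level of 5 markers of undifferentiated mESCs (Pou5f1, Sox2, Nanog, Zfp42 and Esrrb) was 233 to 250.3 FPKM in RA_OGTi, 283 to 318 FPKM in RA_control, 1792 to 1834 FPKM in mESC_OGTi and 1821 to 1825 FPKM in mESC_control. FPKM scales fragments to gene length and library size. Each RA_OGTi library was below each RA_control library in this sum, but Esrrb alone went the other way, at 11.2 to 13.2 FPKM in RA_OGTi and 8.13 to 8.50 FPKM in RA_control. The 8 markers of primitive and visceral endoderm summed to 22.3 to 24.6 FPKM in RA_OGTi, 20.4 to 23.1 FPKM in RA_control, 8.86 to 9.21 FPKM in mESC_OGTi and 8.31 to 9.25 FPKM in mESC_control. The 7 neural markers summed to 19.2 to 23.2 FPKM in RA_OGTi, 23.8 to 25.9 in RA_control, 46.0 to 54.1 in mESC_OGTi and 40.0 to 43.5 in mESC_control, of which Tubb3 held most in each group. The 8 fibroblast or feeder markers summed to 18.6 to 19.2 FPKM in RA_OGTi, 18.2 to 20.8 in RA_control, 11.1 to 12.4 in mESC_OGTi and 12.1 to 12.8 in mESC_control, with Dcn listed at 0 in every library and Col3a1 and Lum at or near 0. The sums of all 4 lists were apart between RA-treated cells and mESCs. With the inhibitor, the mESC sum was apart in RA-treated cells, and the neural sum was lower in RA-treated cells and higher in mESCs with no overlap. Their part in the results below was not tested. In bulk samples fewer cells of a type and less RNA per cell cannot be told apart.

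All 9 genes changed with RA in cells without inhibitor. In RA_control over mESC_control, 7 of the 9 genes rose (33.7% of the 14866 genes tested were called higher) and 2, Rara and Rarg, fell (37.2% were called lower). In RA_OGTi over mESC_OGTi, 7 rose (32.0% of genes tested) and Rarg fell (36.7%). With the inhibitor in mESCs, Crabp2 rose (4.60% of genes tested were called higher) and Rarg fell (3.18% were called lower). Rarb, Cyp26a1, Cyp26b1 and Stra6 rest on 5 to 29 fragments a library there, so a change of these could hardly be called. In RA-treated cells Rara, Rarb, Cyp26a1 and Dhrs3 were higher in RA_OGTi than in RA_control (17.6% of genes tested were called higher). Rarg and Cyp26b1 were lower in RA_OGTi (14.3% were called lower). The inhibitor's effect in RA-treated cells was called above that in mESCs for Rara, Cyp26a1 and Dhrs3 (3.90% of genes tested). It was called below for none of the 9 by limma (3.79% of genes tested). At an unadjusted p under 0.05 it was below for 1 gene, and by limma-voom for 0. That difference is at the same time the difference between the RA effects with and without inhibitor, and the 3 calls are fragile, as given below for each gene. Cyp26a1 and Dhrs3 are low in mESCs, where adding 1 FPKM shrinks an effect, so their calls cannot tell a smaller effect there from a hidden one.

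Calls are limma's, at an adjusted p (Benjamini-Hochberg over all 14866 genes) under 0.05, and fold changes are differences of log2(FPKM + 1), which understate the change of low genes. The median log2 fold change of the 9 genes was 1.76 with RA in inhibitor-treated cells and 1.75 with RA alone, against -0.043 and -0.035 over all genes tested. It was 0.29 with the inhibitor in RA-treated cells and 0.056 in mESCs, against 0.0023 and 0.0053 over all genes. Rescaling to TPM gives every library the same total and also let 18716 genes pass the filter; with both changes the median of all genes tested was 0.24 with RA in inhibitor-treated cells and 0.22 without inhibitor. Under TPM the share of higher among all calls was 68.9% in place of 46.6% for RA with inhibitor and 66.3% in place of 47.5% for RA without inhibitor. It was 66.9% in place of 55.3% for the inhibitor in RA-treated cells and 67.9% in place of 59.1% for the inhibitor in mESCs. For the difference of the inhibitor's effects it was 61.1% in place of 50.7%. The plots of levels by library and of the changes show all 9 genes together.

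**Figure D1:**
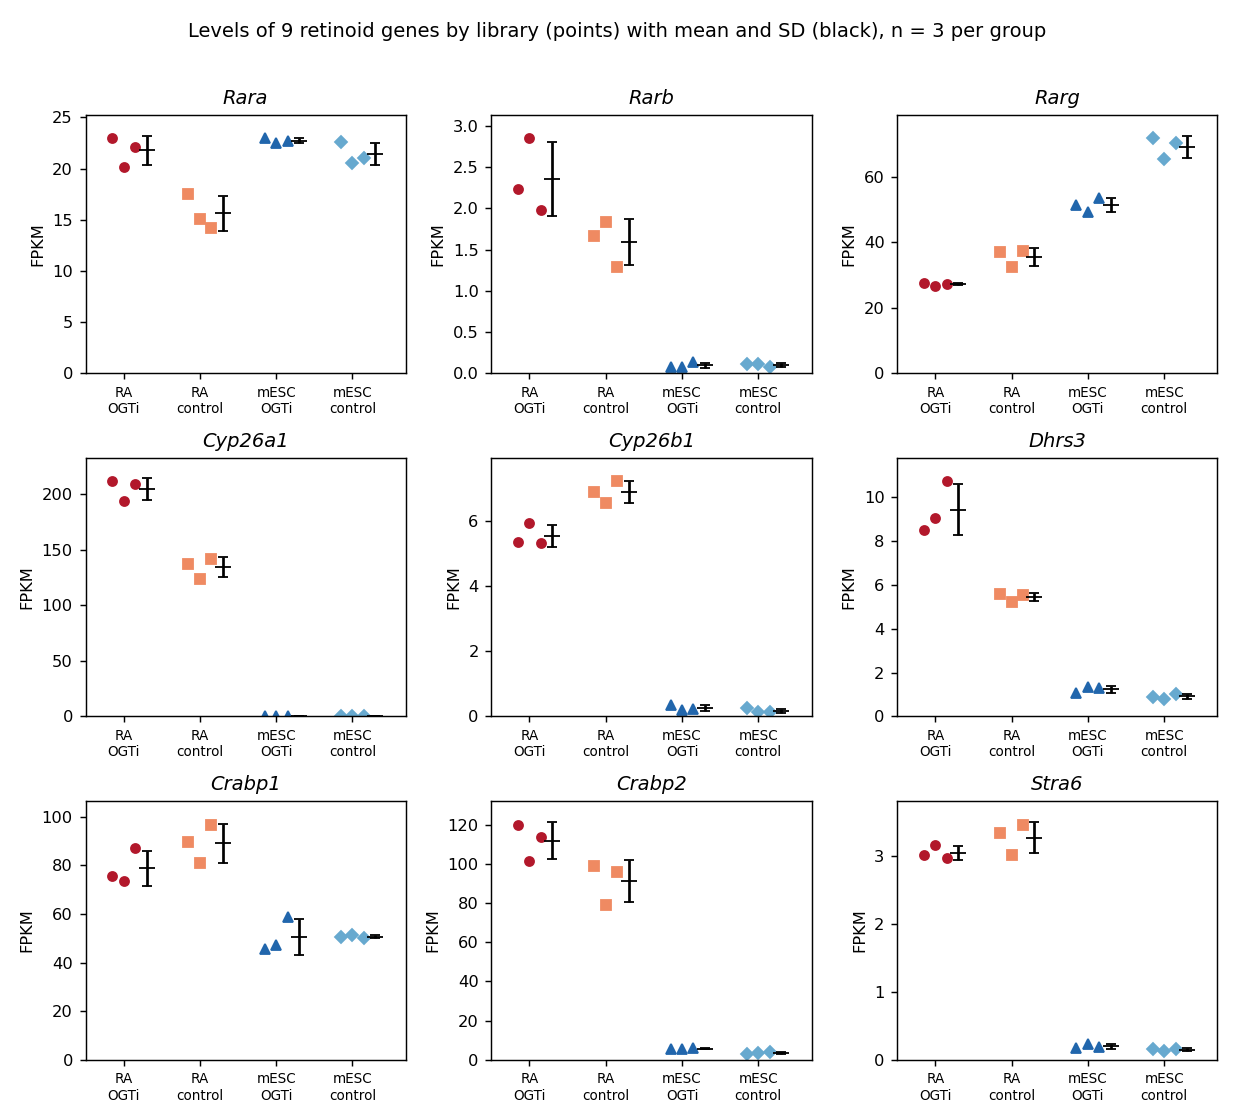
Level in FPKM (linear axes from 0) of the 9 genes in each of 12 libraries, with the mean and SD of the 3 libraries of a group in black. Cyp26a1 stands at 194 to 212 FPKM in RA_OGTi and 124 to 141 FPKM in RA_control, against under 1 FPKM in both mESC groups, while Rarg descends in the opposite order.

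**Figure D2:**
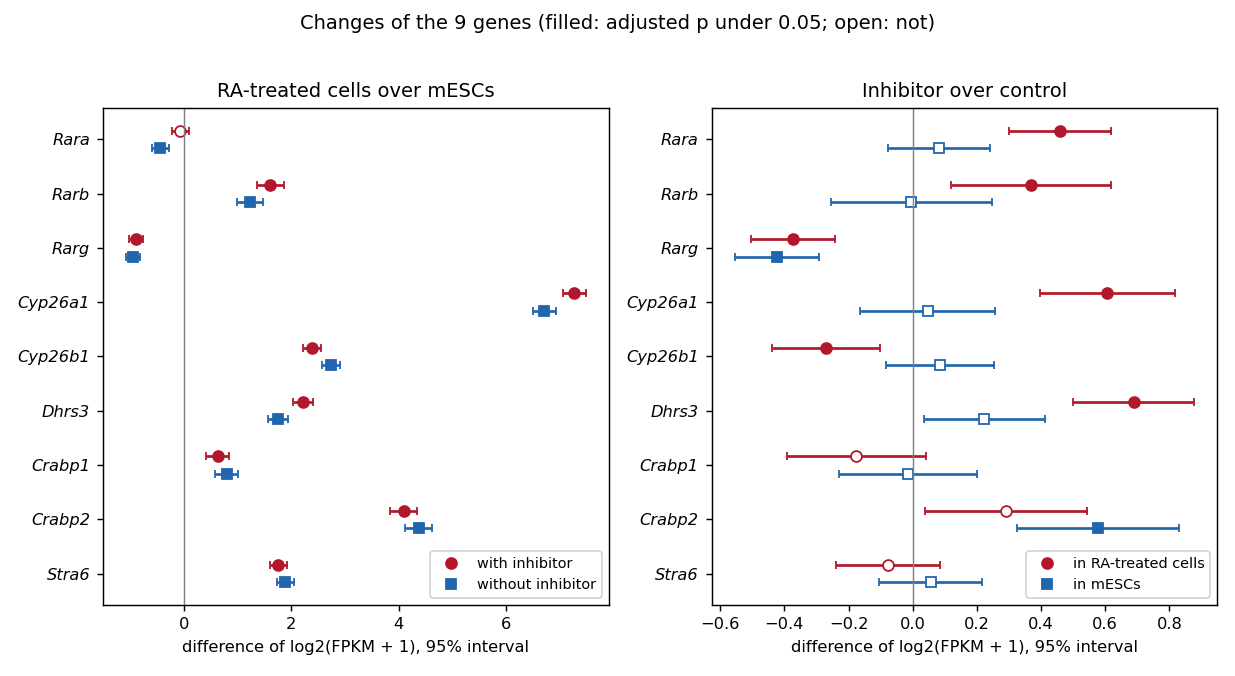
Differences of log2(FPKM + 1) with their 95% intervals, left for RA-treated cells over mESCs with and without inhibitor, right for the inhibitor over control in RA-treated cells and in mESCs. Filled symbols passed at an adjusted p under 0.05; on the right Dhrs3, Cyp26a1, Rara and Rarb lie above 0 and Rarg and Cyp26b1 below 0 among the filled symbols of RA-treated cells.

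Of the receptors, Rarg was the most abundant in every group. Rarg (ENSMUSG00000001288, chromosome 15, 102234938 to 102257517, GRCm38) encodes receptor gamma. It had 27.4, 26.7 and 27.3 FPKM in RA_OGTi, 36.9, 32.3 and 37.4 FPKM in RA_control, 51.3, 49.1 and 53.5 FPKM in mESC_OGTi, and 71.7, 65.3 and 70.3 FPKM in mESC_control. None of the 4 groups overlapped another, so that each step in this order was larger than the spread of the libraries. Rarg fell with the inhibitor in RA-treated cells (log2 fold change -0.37, SE 0.060, adjusted p = 0.00092) and in mESCs (log2 fold change -0.42, standard error 0.060, with an adjusted p of 0.00397). It fell with RA in inhibitor-treated cells (log2 fold change -0.89, adjusted p = 1.12e-07) and without inhibitor (log2 fold change -0.94, adjusted p = 6.92e-08). The inhibitor's effects in the 2 states did not differ beyond their error (difference 0.050, 95% interval -0.14 to 0.24, adjusted p = 0.775). All 4 calls of Rarg held under every alternative, with adjusted p of at most 0.0253.

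Rara (ENSMUSG00000037992, chromosome 11, 98927818 to 98974942), which encodes receptor alpha, behaved otherwise. It had 23.0, 20.2 and 22.2 FPKM in RA_OGTi, 17.6, 15.1 and 14.2 FPKM in RA_control, 23.0, 22.5 and 22.7 FPKM in mESC_OGTi, and 22.6, 20.6 and 21.1 FPKM in mESC_control. The RA_control libraries were the 3 lowest of all 12, and the other groups overlapped. Rara was higher in RA_OGTi than in RA_control (log2 fold change 0.46, SE 0.073, adjusted p = 0.000825) and lower in RA_control than in mESC_control (log2 fold change -0.44, SE 0.073, adjusted p = 0.000203). This fall in RA_control was smaller under TPM (-0.22, adjusted p = 0.0438) and scaled to assigned fragments (-0.22, adjusted p = 0.0206). RA in inhibitor-treated cells did not pass (log2 fold change -0.061, 95% interval -0.22 to 0.098, adjusted p = 0.473), and this value turned to 0.21 under TPM (adjusted p = 0.0543) and to 0.19 scaled to assigned fragments (adjusted p = 0.0401), beside the shift of all genes given above. The inhibitor in mESCs did not pass (log2 fold change 0.083, adjusted p = 0.551). The difference of the inhibitor's effects passed narrowly (0.38, SE 0.10, adjusted p = 0.0485) and was lost in 10 of 12 fits without 1 library, passing without RA_OGTi replicate 2 or RA_control replicate 1, over which the adjusted p ran from 0.0171 to 0.111.

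Rarb (ENSMUSG00000017491, chromosome 14, 16430839 to 16819156) encodes receptor beta and carries the DR5 shown above. It had 2.24, 2.85 and 1.98 FPKM in RA_OGTi, 1.67, 1.83 and 1.29 FPKM in RA_control, 0.0736, 0.0778 and 0.134 FPKM in mESC_OGTi, and 0.109, 0.114 and 0.0717 FPKM in mESC_control. Both RA groups stood above both mESC groups, whose values rest on 6 to 11 fragments a library and overlapped. Rarb rose with RA in inhibitor-treated cells (log2 fold change 1.61, SE 0.11, adjusted p = 1.66e-07) and without inhibitor (log2 fold change 1.23, SE 0.11, adjusted p = 1.50e-06), and by limma-voom on recovered fragments, which adds no 1 FPKM, these log2 fold changes were 4.57 and 3.95. It was the least abundant of the 9 genes in RA_control by FPKM.

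Within RA-treated cells Rarb was higher with the inhibitor (log2 fold change 0.37, SE 0.11, adjusted p = 0.0286), and the groups did not overlap. This call was lost without RA_OGTi replicate 1 (adjusted p = 0.0573) or 2 (adjusted p = 0.107), without RA_control replicate 1 (adjusted p = 0.0529) or 3 (adjusted p = 0.101), without a filter (adjusted p = 0.0512), when only the RA groups were fitted (adjusted p = 0.0704) and at a pseudocount of 0.1 (adjusted p = 0.15), with 0.00568 the lowest adjusted p of any fit. Rarb's counts may hold reads of genes that overlap it: Top2b, at 3.48 FPKM in RA_OGTi, 4.05 in RA_control, 3.58 in mESC_OGTi and 3.82 in mESC_control, shares its end on the other strand, and the antisense gene Gm48162, at most 0.368 FPKM in a library, lies within it. In mESCs the inhibitor's log2 fold change for Rarb was -0.0041 (adjusted p = 0.988), and the difference of effects did not pass (0.37, 95% interval 0.020 to 0.73, adjusted p = 0.184).

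Since FPKM is a level per length, the makeup of the receptor transcripts can be set side by side. Rarg held 52.9% ± 0.823 of the summed FPKM of the 3 receptors in RA_OGTi, 67.4% ± 2.90 in RA_control, 69.2% ± 0.806 in mESC_OGTi and 76.3% ± 0.556 in mESC_control (SD, n = 3 each). Rara held 42.5% ± 1.66 in RA_OGTi, 29.6% ± 2.39 in RA_control, 30.7% ± 0.844 in mESC_OGTi and 23.6% ± 0.530 in mESC_control. Rarb held 4.61% ± 0.992 in RA_OGTi, 3.04% ± 0.648 in RA_control, 0.128% ± 0.0415 in mESC_OGTi and 0.108% ± 0.0275 in mESC_control. The sum itself was 51.3 ± 1.43 FPKM in RA_OGTi and 52.7 ± 3.49 FPKM in RA_control, against 74.1 ± 2.38 FPKM in mESC_OGTi and 90.6 ± 4.33 FPKM in mESC_control. So the summed level was close in the RA groups, while the share of Rara was higher in each RA_OGTi library than in any other. These shares are a description, with no test.

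**Figure D3:**
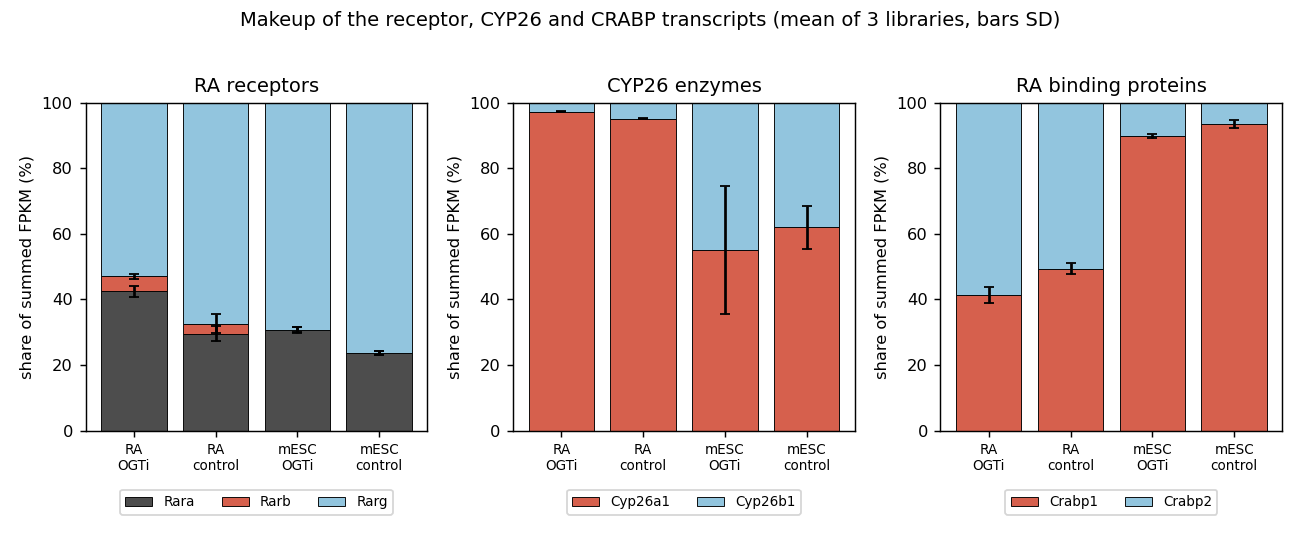
Share (%) of each gene in the summed FPKM of the genes drawn in its panel, as stacked bars of the mean of 3 libraries per group with SD at the borders. Rarg holds 52.9% of the receptor sum in RA_OGTi and 76.3% in mESC_control, Cyp26a1 97.4% of the sum of Cyp26a1 and Cyp26b1 in RA_OGTi and 95.1% in RA_control, and Crabp2 58.7% of the CRABP sum in RA_OGTi against 6.39% in mESC_control.

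Among the 3 enzymes, Cyp26a1 had the largest change with RA. Cyp26a1 (ENSMUSG00000024987, chromosome 19, 37697808 to 37701528) encodes the hydroxylase that clears RA in the early embryo, and its promoter carries the other DR5 shown above. It had 212, 194 and 209 FPKM in RA_OGTi, 137, 124 and 141 FPKM in RA_control, 0.182, 0.269 and 0.578 FPKM in mESC_OGTi, and 0.323, 0.337 and 0.213 FPKM in mESC_control. The lowest RA_OGTi library stood above the highest RA_control library, and both far above all mESC libraries, which held 5 to 16 fragments each. With RA it rose in inhibitor-treated cells (log2 fold change 7.27, SE 0.096, adjusted p = 6.23e-13) as it did without inhibitor (log2 fold change 6.71). In RA-treated cells it was 1.52-fold higher in mean FPKM with the inhibitor (log2 fold change 0.61, standard error 0.096, with an adjusted p of 0.000809), a call lost at a pseudocount of 0.1 (adjusted p = 0.0875, with 2.61e-07 the lowest of any fit).

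In mESCs the inhibitor's effect on Cyp26a1 could not be placed at this depth (log2 fold change 0.048, 95% interval -0.16 to 0.26, adjusted p = 0.813), and without mESC_OGTi replicate 3, the library with 16 fragments, the value was -0.074. The difference of effects passed (0.56, SE 0.14, adjusted p = 0.0303). It was lost in 8 of 12 fits without 1 library, passing without RA_OGTi replicate 2, RA_control replicate 3, mESC_OGTi replicate 3 or mESC_control replicate 3, over which the adjusted p ran from 0.0054 to 0.0749, and by limma-voom it was 0.50 (adjusted p = 0.646).

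Cyp26b1 (ENSMUSG00000063415, chromosome 6, 84571414 to 84593908), a second RA hydroxylase best known from limb, skeleton and germ cells, moved the other way with the inhibitor. It had 5.37, 5.93 and 5.34 FPKM in RA_OGTi, 6.89, 6.56 and 7.23 FPKM in RA_control, 0.350, 0.191 and 0.216 FPKM in mESC_OGTi, and 0.249, 0.149 and 0.141 FPKM in mESC_control. All RA_OGTi libraries were below all RA_control libraries, and the mESC groups overlapped at 12 to 29 fragments a library. It rose with RA in inhibitor-treated cells (log2 fold change 2.39, adjusted p = 3.73e-10) and without inhibitor (log2 fold change 2.74, adjusted p = 1.40e-10), with 4.47 and 5.26 by limma-voom.

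The inhibitor lowered Cyp26b1 in RA-treated cells (log2 fold change -0.27, SE 0.077, adjusted p = 0.02). The call was lost without RA_OGTi replicate 1 (adjusted p = 0.0724) or 3 (adjusted p = 0.0692), without RA_control replicate 1 (adjusted p = 0.0545) or 3 (adjusted p = 0.0697), under TPM (adjusted p = 0.169) and at a pseudocount of 0.1 (adjusted p = 0.252), with 0.0038 the lowest of any fit. The difference of effects did not pass (-0.35, SE 0.11, adjusted p = 0.0702). Of the summed FPKM of both enzymes Cyp26b1 held 2.65% ± 0.284 in RA_OGTi and 4.89% ± 0.127 in RA_control (SD, n = 3 each).

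Dhrs3 (ENSMUSG00000066026, chromosome 4, 144892827 to 144928209) encodes a reductase that turns retinal, the precursor of RA, back to retinol. It had 8.49, 9.06 and 10.7 FPKM in RA_OGTi, 5.57, 5.21 and 5.54 FPKM in RA_control, 1.06, 1.33 and 1.31 FPKM in mESC_OGTi, and 0.890, 0.817 and 1.03 FPKM in mESC_control. No group overlapped another. Dhrs3 rose with the inhibitor in RA-treated cells, 1.73-fold in mean FPKM (log2 fold change 0.69, standard error 0.086, with an adjusted p of 0.000193), the largest inhibitor effect among the 9 genes on this scale. RA raised it in inhibitor-treated cells (log2 fold change 2.22, adjusted p = 1.51e-09) and without inhibitor (log2 fold change 1.75, adjusted p = 8.06e-09). In mESCs the inhibitor's effect did not pass (log2 fold change 0.22, 95% interval 0.034 to 0.41, adjusted p = 0.142). The difference of effects passed (0.47, SE 0.12, adjusted p = 0.0396), was lost in 11 of 12 fits without 1 library, passing without RA_OGTi replicate 1, with adjusted p from 0.0428 to 0.0852 over these fits, and was 0.36 by limma-voom (adjusted p = 0.454).

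The binding proteins differed in their starting levels. Crabp2 (ENSMUSG00000004885, chromosome 3, 87948666 to 87953376) encodes the protein that carries RA to its receptors in the nucleus. It had 120.1, 102 and 114 FPKM in RA_OGTi, 99.2, 79.3 and 95.9 FPKM in RA_control, 5.42, 5.37 and 6.06 FPKM in mESC_OGTi, and 2.74, 3.57 and 4.09 FPKM in mESC_control. In each state all inhibitor libraries lay above all control libraries. Crabp2 rose with RA in inhibitor-treated cells (log2 fold change 4.09, adjusted p = 1.38e-10) and without inhibitor (log2 fold change 4.38, SE 0.11).

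Crabp2 was the gene of the 9 that the inhibitor raised in mESCs (log2 fold change 0.58, standard error 0.11, with an adjusted p of 0.0149). That call was lost without mESC_OGTi replicate 3 (adjusted p = 0.053), when only the mESC groups were fitted (adjusted p = 0.0573) and by limma-voom (log2 fold change 0.71, adjusted p = 0.0657), with 0.00664 the lowest of any fit. In RA-treated cells it missed the threshold (log2 fold change 0.29, SE 0.11, adjusted p = 0.0749), and passed under TPM (adjusted p = 0.0388), scaled to assigned fragments (adjusted p = 0.0401) and by limma-voom (adjusted p = 0.00495). The 2 effects did not differ beyond their error (difference -0.29, 95% interval -0.64 to 0.071, adjusted p = 0.317).

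Crabp1 (ENSMUSG00000032291, chromosome 9, 54764748 to 54773110), which holds RA in the cytoplasm, was already abundant in mESCs. It had 75.7, 73.5 and 87.1 FPKM in RA_OGTi, 89.6, 80.8 and 96.8 FPKM in RA_control, 45.5, 47.1 and 58.9 FPKM in mESC_OGTi, and 50.4, 51.5 and 50.1 FPKM in mESC_control. The RA groups lay above the mESC groups, and within each state inhibitor and control libraries overlapped. It rose with RA in inhibitor-treated cells (log2 fold change 0.64, SE 0.098, adjusted p = 0.000116) and without inhibitor (log2 fold change 0.80, SE 0.098, adjusted p = 1.76e-05). The inhibitor's effect did not pass in RA-treated cells (log2 fold change -0.18, 95% interval -0.39 to 0.040, adjusted p = 0.2) or in mESCs (log2 fold change -0.014, 95% interval -0.23 to 0.20, adjusted p = 0.951). Crabp2 held 58.7% ± 2.41 of the summed FPKM of the pair in RA_OGTi, 50.6% ± 1.68 in RA_control, 10.1% ± 0.674 in mESC_OGTi and 6.39% ± 1.20 in mESC_control (SD, n = 3 each).

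Stra6 (ENSMUSG00000032327, chromosome 9, 58063788 to 58153996) encodes the membrane receptor that takes up retinol from its carrier in blood. It had 3.02, 3.16 and 2.96 FPKM in RA_OGTi, 3.33, 3.01 and 3.46 FPKM in RA_control, 0.166, 0.234 and 0.187 FPKM in mESC_OGTi, and 0.164, 0.125 and 0.162 FPKM in mESC_control. RA_OGTi and RA_control overlapped, and both stood above the mESC groups. It rose with RA in inhibitor-treated cells (log2 fold change 1.76, adjusted p = 2.66e-09) and without inhibitor (log2 fold change 1.89, adjusted p = 1.34e-09), with 3.94 and 4.40 by limma-voom. The inhibitor's effect did not pass in RA-treated cells (log2 fold change -0.076, 95% interval -0.24 to 0.085, adjusted p = 0.465) or in mESCs (log2 fold change 0.056, adjusted p = 0.702). Ccdc33 overlaps Stra6 on the other strand and had at most 0.318 FPKM in a library.

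Other genes of the pathway were followed in 4 lists. Of 16 nuclear partners and cofactors 15 were tested, of 11 genes of uptake, storage and transport 6, of 17 genes of RA synthesis and its reversal 8, and of 24 known RA targets outside the 9 genes 20. In RA_control over mESC_control, 15 of 20 known targets rose and 3 fell, with a median log2 fold change of 1.04. Stra8, a gene of meiotic entry, stood at 546 ± 14.2 FPKM in RA_control and 43.5 ± 2.04 FPKM in mESC_control (log2 fold change 3.62), and Zfp703, a zinc finger gene, at 16.9 ± 1.34 FPKM in RA_control and 0.419 ± 0.119 FPKM in mESC_control (log2 fold change 3.65). Hoxb1, a homeobox gene of the hindbrain, reached 58.8 ± 6.18 FPKM in RA_control and was near 0 in mESC_control at 0.0183 ± 0.0316 FPKM (SD, n = 3 each), so no fold is given. Uptake genes rose in 5 of 6 (median 0.82), among them the endocytic receptor gene Lrp2 (log2 fold change 1.07) and the retinol carrier Rbp4 (1.04).

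Of genes of synthesis and its reversal, 4 of 8 rose and 3 fell with RA without inhibitor (median 0.21). Aldh1a2, whose product makes RA from retinal, rose (log2 fold change 1.29), as did Cyp26c1, the neighbour of Cyp26a1 and its relative (1.21), while the reductase gene Dhrs4 fell (-1.07). Of nuclear partners and cofactors 5 of 15 rose and 8 fell (median -0.25). Over all genes tested 33.7% were called higher and 37.2% lower, so the counts of the synthesis list and the higher calls among partners are near the background and are no result about these lists. The corepressor gene Nrip1 (0.89) and Rxra, which encodes the dimer partner of the RA receptors (0.79), were higher, and the corepressor Ncor1 (-0.59) was lower.

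With RA in inhibitor-treated cells the counts were 15 higher and 3 lower of 20 known targets (median 1.24), 5 and 0 of 6 uptake genes (median 0.79), 4 and 3 of 8 synthesis genes (median 0.25), and 2 and 10 of 15 partners and cofactors (median -0.27), beside 32.0% higher and 36.7% lower over all genes tested, which the synthesis counts are near. The largest change among the targets was that of Hoxb1, at 36.1 ± 2.45 FPKM in RA_OGTi and 0.0294 ± 0.0509 FPKM in mESC_OGTi. Zfp703 (log2 fold change 4.10) and Stra8 (3.94) followed. Uptake genes that rose included Lpl, which encodes lipoprotein lipase (0.92), and Lrp2 (0.80). Cyp26c1 (1.77), Aldh1a2 (1.43) and Dhrs4 (-0.90) led the synthesis list. Nrip1 (1.16), Tbl1xr1, a subunit of corepressor complexes (-0.97), and Ncor1 (-0.61) led the partners.

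The inhibitor in RA-treated cells raised 7 of 20 known targets and lowered 2 (median log2 fold change 0.18), where 17.6% of all genes tested were called higher and 14.3% lower. The lower calls among targets, and the counts of the partners and uptake lists given below, are small and near these shares. Hoxb1 was lower, at 36.1 ± 2.45 FPKM in RA_OGTi and 58.8 ± 6.18 FPKM in RA_control (log2 fold change -0.69, adjusted p = 0.000122). In the synthesis list 3 of 8 rose and 1 fell (median 0.21): Aldh1a2 was at 9.29 ± 0.663 FPKM in RA_OGTi and 5.99 ± 0.359 FPKM in RA_control (0.56, adjusted p = 0.000591), Cyp26c1 at 3.15 ± 0.330 FPKM in RA_OGTi and 1.82 ± 0.360 FPKM in RA_control (0.56, adjusted p = 0.00792), and Rdh11, a retinal reductase gene, fell (-0.41, adjusted p = 0.00366). Cyp26c1 lost its call at a pseudocount of 0.1 (adjusted p = 0.249, with 0.00473 the lowest of any fit). Of 15 partners and cofactors 2 rose and 2 fell (median 0.041), with Fabp5, a lipid chaperone that can carry RA (-0.51), and Tbl1xr1 (-0.35) lower. Lpl alone rose of 6 uptake genes (0.43, median of the list -0.054).

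In mESCs the inhibitor called none of 20 known targets by limma (median 0.020), with 1 at an unadjusted p under 0.05 and 0 by limma-voom, and 2 of 15 partners and cofactors, 1 of 6 uptake and 1 of 8 synthesis genes were higher, with medians of 0.13, 0.091 and 0.066, beside 4.60% higher and 3.18% lower over all genes tested. Among them were Rxra (0.25, adjusted p = 0.0156), Lrp2 (0.42, adjusted p = 0.0445) and Aldh1a2 (0.42, adjusted p = 0.0149). Rxra was lost in 4 of 6 fits without 1 library, Lrp2 in 5 of 6 and Aldh1a2 in 1 of 6, with adjusted p up to 0.0604, 0.147 and 0.0556. For the difference of the inhibitor's effects 3 targets were higher and 1 lower, 2 partners were lower, 1 synthesis gene was lower and no uptake gene was called by limma (medians 0.13, -0.17, 0.13 and -0.13), with 1 uptake gene at an unadjusted p under 0.05 and 0 by limma-voom, beside 3.90% higher and 3.79% lower over all genes tested. Tbl1xr1 (-0.52, adjusted p = 0.00202) and Rxra (-0.37, adjusted p = 0.0126) kept their calls in every fit without 1 library. Hoxb1 had at most 0.0882 FPKM in an mESC_OGTi library and 0.0548 FPKM in an mESC_control library. Its difference (-0.70, adjusted p = 0.00517) thus cannot tell a smaller effect in mESCs from a hidden one. Its call was lost by limma-voom (adjusted p = 0.744) and at a pseudocount of 0.1. Cdx1 (0.50, adjusted p = 0.0496), Stra8 (0.32, adjusted p = 0.0344) and Rdh11 (-0.50, adjusted p = 0.0279) lost theirs in 10, 9 and 8 of 12 fits without 1 library.

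**Figure D4:**
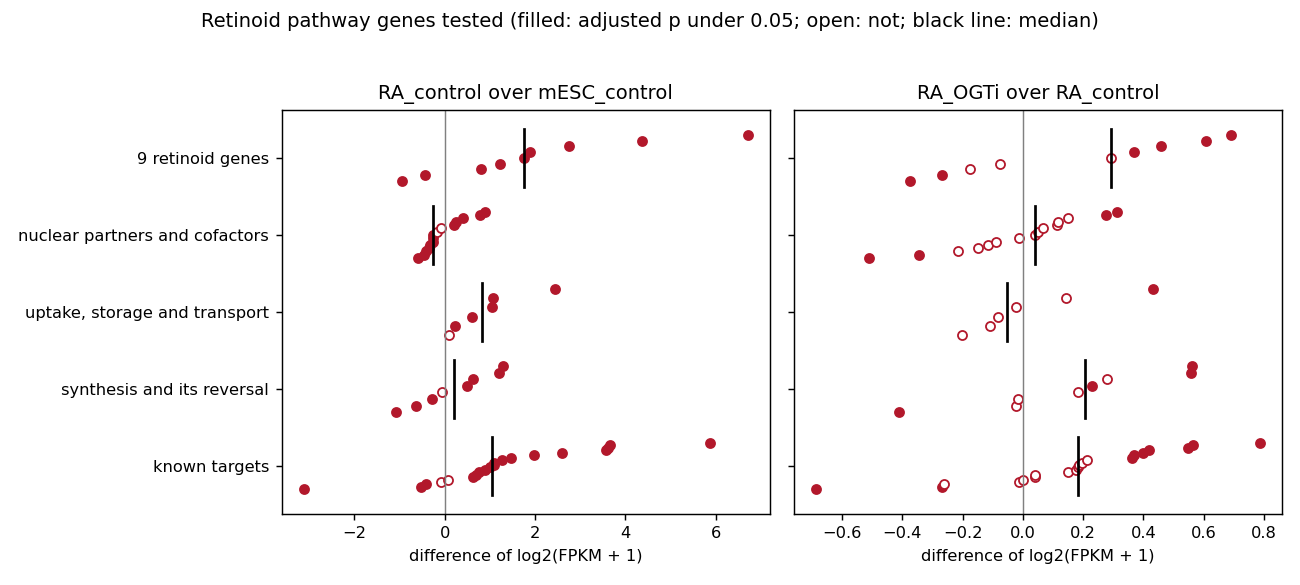
Differences of log2(FPKM + 1) of the tested genes of each list, left for RA_control over mESC_control and right for RA_OGTi over RA_control. Each point is a gene, filled where the adjusted p was under 0.05, and the black line is the median, 1.75 and 0.29 for the 9 retinoid genes.

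Genes with the pattern most like each of the 9 were sought among 8223 tested protein-coding genes with a mean of at least 5 FPKM in a group, by Pearson's r of log2(FPKM + 1) over the 12 libraries. The libraries share 4 group means and the large RA shift, so high r is common, and the values describe likeness of levels only. Most like Cyp26a1 were Stra8 (r = 0.999), Mdk (0.999) and Sox3 (0.999), and most like Crabp2 were Olfm1 (0.999), Txnip (0.998) and Dag1 (0.998). Most like Cyp26b1 were Hoxb1 (0.998), Dusp8 (0.998) and Pmp22 (0.997), most like Stra6 Reep5, Grifin and Thbs4 (0.997 to 0.998), and most like Dhrs3 Ppp6r2, Ecel1 and Gatsl2 (0.996 to 0.997). Rarb was most like Man2a1, Ebf4 and Greb1l (0.992 to 0.994), Rarg like Tcf15, Trip10 and Psma3 (0.987 to 0.991), and Crabp1 like Serpine2, Shisa4 and Mxra7 (0.984 to 0.985). The lowest values were those for Rara, with Rcn1 (0.974), Sumf1 (0.957) and Nbas (0.946). Tcf15, a bHLH factor gene, was at 37.5 FPKM in RA_OGTi, 47.4 FPKM in RA_control, 87.9 FPKM in mESC_OGTi and 124 FPKM in mESC_control, the order that Rarg showed.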

How the data were processed

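RNA of R1 mESCs was sequenced after TRIzol extraction and NEBNext Ultra library preparation, per the labels' protocols. HISAT2 2.0.5, featureCounts 1.5.0 and the build GRCm38 are named in the submitters' processing notes; the labels state neither filters nor strand setting nor how FPKM was computed. The authors deposited FPKM per gene and library, with coordinates and gene length in other columns. Multiplying FPKM by length returned whole fragments for 100% of values (tolerance 0.02), on a scale that differs from the assigned total (0.883 to 1.11 fragments per implied fragment). Since no label says what a replicate is, p-values describe the spread among these libraries, which may be technical.

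Each comparison was tested two-sided with limma 3.58.1 in R 4.3.3 (trend on mean level) on log2(FPKM + 1), in 1 fit of the 12 libraries with 8 residual degrees of freedom. The 14866 genes that reached 1 FPKM in 3 libraries or more were tested, and Benjamini-Hochberg adjustment ran over all of them. The 5 comparisons were the inhibitor in each state, RA after each pre-treatment, and how far the inhibitor's effects differ. The members, lists and tests were chosen with earlier results of these data known. Named were the 9 genes, up to 3 called genes of largest change per list and comparison, the 3 most alike genes per member, genes that overlap a member, and Blvrb. Some genes that this rule names are not reported here; the counts and medians of the lists include them. Tried besides were the pseudocount 0.1; testing every gene above 0; a mean of at least 5 FPKM; TPM; limma-voom on recovered fragments with median-of-ratios factors; the replicate number as block; only the compared groups; leaving out each library; and, chosen after seeing the data, scaling to assigned fragments. Scripts were tested on simulated data. Python 3.11.15 (pandas 2.3.3; numpy 2.4.6; matplotlib 3.10.9) made the tables and figures.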

Additional observations from a re-analysis of the deposited data

Results flagged for a closer look

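For 3 genes the test of the difference between the inhibitor's effects in RA-treated cells and in mESCs passed on log2(FPKM + 1). For Rara the difference of log2 fold changes was 0.38 (effects 0.46 in RA-treated cells and 0.083 in mESCs, adjusted p = 0.0485). For Cyp26a1 it was 0.56 (effects 0.61 in RA-treated cells and 0.048 in mESCs, adjusted p = 0.0303). For Dhrs3 it was 0.47 (effects 0.69 in RA-treated cells and 0.22 in mESCs, adjusted p = 0.0396). All 3 calls were lost without a filter on low values, at a pseudocount of 0.1 and under TPM, and Cyp26a1 and Dhrs3, which are low in mESCs, also by limma-voom. For Cyp26a1 and Dhrs3 the added 1 FPKM shrinks the mESC effect, so the test cannot tell a smaller effect in mESCs from a hidden one. Groups of 3 libraries are too small for a check of single libraries that stand apart.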

How the results depend on the processing

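Of 28 calls of the 9 genes over the 5 comparisons, 22 held in every fit without 1 library and 21 in every fit run, among them all 9 for RA without inhibitor and all 8 for RA with inhibitor. Of the 9 genes 2 were called with the inhibitor in mESCs, but 1 by limma-voom, 1 in a fit of the groups compared and 1 to 2 without 1 library. With the inhibitor in RA-treated cells 6 were called, but 3 at a pseudocount of 0.1 and 4 to 6 without 1 library. For the difference of effects 3 were called, but 0 at a pseudocount of 0.1, 0 without a filter, 0 under TPM, 1 by limma-voom and 0 to 2 without 1 library. A mean of at least 5 FPKM left 5 of the 9 genes to test and called 5 with RA without inhibitor, 4 with RA with inhibitor and 3 with the inhibitor in RA-treated cells. The direction turned for Rara with RA in inhibitor-treated cells (-0.061, but 0.21 under TPM and 0.19 scaled to assigned fragments) and, without 1 library, for values near 0 that were not called: with the inhibitor in mESCs Rarb (-0.029 to 0.010), Crabp1 (-0.13 to 0.055) and Cyp26a1 (-0.074 to 0.13), and for the difference of effects Rarg (-0.016 to 0.090). The cause was not tested.

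Over all genes tested the inhibitor in mESCs called 1157 genes, but 664 without a filter, 512 in a fit of the groups compared and 361 to 818 without 1 library; the difference of effects called 1143, but 638 to 1032 without 1 library. With a mean of at least 5 FPKM, 7942 genes were tested, and RA without inhibitor called 6161 in place of 10534, RA with inhibitor 6046 in place of 10209, and the inhibitor in RA-treated cells 3145 in place of 4738. Of 44 named changes of other pathway genes 36 kept their call in every fit.

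For libraries of the same replicate number the correlation of deviations from the group means ran from -0.021 to 0.12, over 0.1 in 3 of 18 pairs. Between libraries of unlike number it ran from -0.18 to 0.13, over 0.1 in 1 of 36 pairs. Any pairing by number was thus weak, and whether there is one was not tested. With the replicate number as a replicate block the counts of the 9 genes called were 2, 9, 6, 8 and 3, as without it, and of the other named genes Lrp2 in mESCs (adjusted p = 0.0524) and Cdx1 for the difference of effects (adjusted p = 0.0689) lost their calls. Depth limits the mESC values of Rarb, Cyp26a1, Cyp26b1 and Stra6, which rest on 5 to 29 fragments a library.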
